A study of Homo sapiens with 9 samples.

Results

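The metal ion transporters of the solute carrier (SLC) families move iron, zinc, copper, manganese and magnesium across cell membranes. The members were every gene whose annotated symbol was SLC, then 11, 30, 31, 39, 40 or 41, then A and a number. This gave 32 genes of 19775 that had a probe set of their own, and 27 of the 13056 genes bright enough to test. The series used HepG2, a human liver cancer cell line, as a model of the hepatocyte. It asked how the nuclear receptors HNF4alpha and HNF4gamma, which keep many liver genes on, control transcription. Total RNA was hybridised to 9 Affymetrix arrays. They formed 3 groups of 3. The groups knockdown1 and knockdown2 both carried siRNA against HNF4alpha together with HNF4gamma, and the third was control. The labels do not say how the 2 knockdowns differ, what the control received or whether replicates were separate cultures, so every p-value here rests on differences among arrays that could be technical repeats.

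Metal transport has a simple layout. SLC39 proteins (ZIP) and SLC11 proteins carry divalent metals into the cytosol from outside the cell or from organelles, and SLC30 proteins (ZnT) carry them out of the cytosol. SLC31A1 takes up copper, SLC40A1 (ferroportin) is the cellular iron exporter, and SLC41 proteins carry magnesium. The liver stores iron, passes copper and manganese to bile and secretes hepcidin, the peptide hormone that sends ferroportin for degradation.

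Signals are brightness values scaled so that each array has the same median, 14.1, and are given array by array in the order of the replicate numbers. Log2 differences were taken after adding 1.41 to the signal, which understates the change of dim genes. A gene was called when its limma p-value, adjusted by Benjamini-Hochberg over all 13056 genes, was under 0.05. A level is set only against the level of the same probe set on other arrays. In bulk RNA, fewer cells of a type and less RNA per cell cannot be told apart.

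Across both knockdowns against control, 13 of the 27 tested members were called, 5 higher and 8 lower, where 32.6% of all tested genes were called (14.7% higher and 17.9% lower). In knockdown1 alone 14 members were called, 6 higher and 8 lower, beside 33.3% of all genes (14.3% higher and 19.0% lower). In knockdown2 alone it was 12, 4 higher and 8 lower, beside 27.6% (13.7% higher and 13.9% lower). The 2 knockdowns share the 3 control arrays. With the 6 knockdown arrays pooled as 1 group, 7 members were called, 2 higher and 5 lower, and SLC30A6, SLC39A3, SLC39A6, SLC39A11, SLC39A13 and SLC41A3 were not. In that fit 16.9% of all genes were called. The members' median log2 difference was -0.05 over both knockdowns and -0.01 for all genes, and their median absolute difference was 0.37 beside 0.31. The split of all genes into higher and lower moved with the scaling. It was 1916 to 2340 for both knockdowns, and 3050 to 2482 when each array was centred on its tested genes. For knockdown1 it was 1866 to 2485, and 3105 to 2628 on the values as deposited. For members the counts on the deposited values were 6 higher and 10 lower over both knockdowns. On those values 5496 of all genes were called, 2718 higher and 2778 lower, beside 4256 after scaling.

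The siRNA targets and the cell identity were checked first. HNF4G had a signal of 46.0 ± 1.65 (SD, n = 3) in control, 18.5 ± 4.66 in knockdown1 and 31.6 ± 9.14 in knockdown2, and fell over both knockdowns (log2 -0.92, SE 0.24, adjusted p = 0.00345). That value is the mean of the knockdown1 and knockdown2 differences and does not show a fall in each. The signals are from 1 of the 2 probe sets of HNF4G. HNF4A was not analysed here. All 10 hepatocyte markers listed were bright enough to test. Their summed signal was 33850 to 41266 in knockdown1, 38141 to 41039 in knockdown2 and 39335 to 47729 in control. Of the 10, 3 (APOA1, TTR and TF) fell over both knockdowns, beside 17.9% of all genes. Of the markers of other cells, 4 of 6 fibroblast, 1 of 5 endothelial, 1 of 4 leukocyte, 4 of 5 cholangiocyte and 2 of 4 intestinal genes were bright enough. Their summed signals in knockdown1, knockdown2 and control were 120 to 152, 113 to 145 and 99.3 to 143 for fibroblast genes, and 77.6 to 96.4, 88.9 to 130 and 66.3 to 73.8 for endothelial genes. They were 12.8 to 27.2, 21.2 to 29.1 and 33.6 to 51.4 for leukocyte genes, 2740.4 to 3472, 1991 to 2292 and 1733 to 2535 for cholangiocyte genes, and 1129 to 1552, 1625 to 1839 and 1265 to 1528 for intestinal genes. Among these PECAM1 (log2 0.59) and KRT19 (2.27) rose and CD14 (-2.66) fell over both knockdowns. CD14 gave 31.9, 21.6 and 16.7 in control and 1.14 to 9.79 on the knockdown arrays, all of them below the array median. It was bright enough to test through its control arrays alone, so it had to differ, and its fall is no support for a change. The part of these markers in the results below was not tested. Control replicate 3 needed the largest scaling factor, 1.15, and after scaling was the highest control array for 20 of the 27 members and 65.5% of all genes. On the deposited values it was the highest for 10 members and 36.7% of genes.

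Promoter sequences are shown for the members with the largest changes over both knockdowns in each direction and for SLC40A1 and SLC30A1, which export metal from the cell. Each is the 250 bases before a gene start, 5′ to 3′ on the gene's strand, from RefSeq on GRCh38.p14. Of the 32 members 28 were found in the promoter table. SLC30A8, SLC31A2, SLC39A4 and SLC39A14 were not, and their promoters were not searched. Capitals mark matches, on either strand, to the metal response element cores TGCACNC and TGCGCNC, which the zinc sensor MTF1 binds. The gene SLC30A10, a manganese exporter, has its listed starts beside chr1:219959099-219959348 and chr1:219928558-219928807, both on the minus strand. SLC31A1 lies beside chr9:113221294-113221543 on the plus strand and SLC30A7 beside chr1:100895840-100896089 on the plus strand. SLC40A1 lies beside chr2:189580787-189581036 and SLC30A1 beside chr1:211579162-211579411, both on the minus strand.
SLC30A10, start 1: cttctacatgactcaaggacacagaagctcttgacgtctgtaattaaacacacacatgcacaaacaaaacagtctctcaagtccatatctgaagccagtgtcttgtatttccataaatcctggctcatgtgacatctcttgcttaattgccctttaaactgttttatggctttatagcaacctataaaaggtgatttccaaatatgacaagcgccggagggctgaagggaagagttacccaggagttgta
SLC30A10, start 2: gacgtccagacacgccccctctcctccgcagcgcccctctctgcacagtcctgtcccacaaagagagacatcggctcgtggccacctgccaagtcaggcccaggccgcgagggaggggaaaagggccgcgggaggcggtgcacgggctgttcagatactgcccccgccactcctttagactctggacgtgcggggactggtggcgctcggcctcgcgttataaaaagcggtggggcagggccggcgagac
SLC31A1: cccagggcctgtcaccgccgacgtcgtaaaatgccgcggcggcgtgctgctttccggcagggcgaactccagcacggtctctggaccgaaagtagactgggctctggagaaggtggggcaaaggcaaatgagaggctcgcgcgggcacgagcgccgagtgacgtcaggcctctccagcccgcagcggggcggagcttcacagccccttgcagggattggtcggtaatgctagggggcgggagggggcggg
SLC30A7: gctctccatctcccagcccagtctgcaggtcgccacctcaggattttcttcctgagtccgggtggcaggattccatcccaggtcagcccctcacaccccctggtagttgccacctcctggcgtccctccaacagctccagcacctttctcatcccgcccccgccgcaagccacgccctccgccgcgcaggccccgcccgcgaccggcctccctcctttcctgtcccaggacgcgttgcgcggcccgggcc
SLC40A1: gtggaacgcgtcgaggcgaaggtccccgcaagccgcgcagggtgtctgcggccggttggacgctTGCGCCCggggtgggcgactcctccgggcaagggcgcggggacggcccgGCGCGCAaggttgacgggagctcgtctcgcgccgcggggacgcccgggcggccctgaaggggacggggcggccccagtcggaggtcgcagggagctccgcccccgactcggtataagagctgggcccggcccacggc
SLC30A1: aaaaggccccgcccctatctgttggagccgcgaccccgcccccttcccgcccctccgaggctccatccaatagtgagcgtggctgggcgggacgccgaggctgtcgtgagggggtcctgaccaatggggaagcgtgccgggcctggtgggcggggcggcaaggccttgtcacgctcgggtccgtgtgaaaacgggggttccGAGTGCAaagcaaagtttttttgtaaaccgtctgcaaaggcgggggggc

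The SLC40A1 promoter held 2 matches to TGCGCNC, 186 and 137 bases before the start. That of SLC30A1, a zinc exporter known to be induced by zinc, held 1 match to TGCACNC on the opposite strand, 49 bases before the start. Neither core was found in these stretches of SLC30A10, SLC31A1 or SLC30A7. TGCACNC was found in 4 of the 42 member promoters (SLC30A1, SLC30A2, SLC30A3 and SLC30A6), beside 9.87% of all 35116 promoters. TGCGCNC was found in 9 of the 42, beside 16.8% of all promoters. These 9 belonged to SLC30A2, SLC30A3, SLC30A4, SLC39A1, SLC39A3, SLC39A6, SLC39A8, SLC39A13 and SLC40A1. The HNF4 motif CAAAGTCCA (0.325% of all promoters) and the repeat of AGGTCA with 1 free base between the copies (0.0171%) were in none of the 42 member promoters. Those of SLC39A4 and SLC39A14, which fell in both knockdowns, were not among the 42. GC content was 77.2% for SLC40A1, 69.6% for SLC30A7, 68% for SLC31A1 and 41.2% and 67.6% for the starts of SLC30A10, beside a median of 58% over all promoters. A match is a string of letters and was not tested as a binding site.

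Iron transporters came first, since the liver is the main site of iron storage. SLC40A1, which exports ferrous iron, gave signals of 759, 557 and 943 in control, 1293, 1105.5 and 1366 in knockdown1 and 1579, 1431 and 1418 in knockdown2. Every knockdown array was above every control array, and control replicate 3 was the highest of control. The gene rose 1.84-fold over both knockdowns (log2 0.88, SE 0.14, adjusted p = 8.50e-06). The rise was 0.76 in knockdown1 (adjusted p = 3.30e-04) and 1.00 in knockdown2 (adjusted p = 1.47e-05), and the knockdowns did not pass a test against each other (-0.24, adjusted p = 0.296). A dimmer probe set of the gene differed by 0.10 over both knockdowns and was not called, and averaging the probe sets lowered the knockdown1 value to 0.35 (adjusted p = 0.0622).

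The SLC11 importers, on their brightest probe sets, were not called in any comparison. SLC11A2 (DMT1), which brings ferrous iron out of endosomes, gave 346, 279 and 452 in control, 359.5, 301 and 363.5 in knockdown1 and 342, 332 and 344 in knockdown2. The control arrays spanned the whole range of the knockdown arrays. Its log2 difference over both knockdowns was -0.05, with a 95% interval of -0.34 to 0.23. The average of its 4 probe sets above the filter was called lower in knockdown1 (-0.48, adjusted p = 0.0413). Of these, 3 gave -0.05, -0.09 and -0.01 in knockdown1. The other gave -1.76 on dim signals, with means of 6.85 in knockdown1 and 21.2 in control. SLC11A1, the transporter of phagocyte vesicles, differed by 0.21 with an interval of -0.18 to 0.61, on a probe set whose name marks possible cross-hybridisation.

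SLC39A14 (ZIP14) brings iron not bound to transferrin, zinc and manganese into hepatocytes. It gave 5000.4, 4542 and 5542 in control, 2491, 2663.5 and 2907 in knockdown1 and 2913.5, 3216 and 3408 in knockdown2. All 6 knockdown arrays were below the lowest control array. The signal fell to 0.582 of control over both knockdowns (log2 -0.78, SE 0.11, adjusted p = 1.63e-06), with values of -0.90 in knockdown1 and -0.66 in knockdown2, both called. A second probe set of the gene fell by 1.43 over both knockdowns. Its close relative SLC39A8 (ZIP8), with 6 probe sets, was below the brightness filter and gave 1.66 to 20.2 over the 9 arrays on its brightest probe set.

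Among the copper importers, SLC31A1 (CTR1), the high-affinity carrier of the cell surface, gave 995, 788 and 1076 in control. It gave 569, 503.5 and 590.3 in knockdown1 and 487, 369.6 and 414 in knockdown2, so that no knockdown array reached the control range. The signal fell to 0.511 of control (log2 -0.97, SE 0.13, adjusted p = 1.13e-06), by 0.77 in knockdown1 (adjusted p = 1.79e-04) and by 1.16 in knockdown2 (adjusted p = 8.30e-07). Its 2 further probe sets fell by 0.85 and 0.67 over both knockdowns.

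SLC31A2 (CTR2), an endosomal relative, gave 39.5, 45.3 and 52.3 in control, 26.4, 30.4 and 33.1 in knockdown1 and 43.0, 51.2 and 39.6 in knockdown2. Knockdown1 lay below control on all arrays and knockdown2 overlapped it. The fall in knockdown1 (log2 -0.58, SE 0.22, adjusted p = 0.0456) was close to the threshold. It was lost without any 1 of knockdown1 replicate 1 (adjusted p = 0.14) or 2 (0.0827), knockdown2 replicate 1 (0.0584), 2 (0.059) or 3 (0.0573), or control replicate 2 (0.0706) or 3 (0.132).

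SLC30A10 exports manganese, and in the liver it sends it to bile. It gave 48.5, 42.5 and 58.0 in control, 10.5, 12.8 and 8.56 in knockdown1 and 8.71, 2.38 and 9.68 in knockdown2. All 6 knockdown signals were below the array median of 14.1. The log2 difference over both knockdowns was -2.42 (SE 0.39, adjusted p = 1.55e-05), to 0.187 of control, and it ran from -2.62 to -1.49 with the pseudocount. The gene passed the brightness filter through its control arrays alone, so it had to differ, and its count among the called members is no support. At this brightness the knockdown values mark little more than that the signal was low.

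The zinc exporters of organelles moved in different directions. SLC30A7 (ZnT7), which loads zinc into the Golgi, gave 309, 231 and 317 in control, 775.5, 666 and 850.2 in knockdown1 and 688, 669 and 665 in knockdown2. Every knockdown array was far above every control array. SLC30A7 rose 2.52-fold (log2 1.33, SE 0.13, adjusted p = 4.20e-09), 2.68-fold in knockdown1 and 2.37-fold in knockdown2, both called. A second probe set rose by 2.11 on the log2 scale in knockdown1 and 1.88 in knockdown2, and a dim one differed by 0.32 over both and was not called.

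SLC30A5 and SLC30A6 (ZnT5 and ZnT6) work as a pair that supplies zinc to enzymes of the secretory pathway. SLC30A6 gave 582, 465 and 629 in control, 332, 301 and 413 in knockdown1 and 453, 494 and 487 in knockdown2. Knockdown1 lay below the other groups, and knockdown2 overlapped control. The signal fell in knockdown1 (log2 -0.68, SE 0.15, adjusted p = 8.84e-04) and over both knockdowns (log2 -0.45, SE 0.13, adjusted p = 0.00989). In knockdown2 the difference was -0.21 (adjusted p = 0.337), and -0.25 (adjusted p = 0.0342) on the values as deposited. The fall over both knockdowns was lost without control replicate 1 (-0.41, adjusted p = 0.0646). Averaging the probe sets also ended it (-0.15, adjusted p = 0.601) and the knockdown1 call (-0.11, adjusted p = 0.741). In knockdown1 a second probe set gave -0.69 (adjusted p = 0.0274), and a dim one gave 1.03 (SE 0.62, adjusted p = 0.229).

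SLC30A5 gave 502, 433 and 668.5 in control, 421, 327 and 410.2 in knockdown1 and 486, 438 and 463 in knockdown2. The name of this probe set marks possible cross-hybridisation. Knockdown1 again lay below control, while knockdown2 overlapped it. The fall in knockdown1 (log2 -0.45, SE 0.16, adjusted p = 0.0281) was lost without knockdown1 replicate 2 (adjusted p = 0.157) or control replicate 1 (0.0535) or 3 (0.124), and with its 5 probe sets averaged (-0.28, adjusted p = 0.158). In knockdown1 the further probe sets gave -0.56 (adjusted p = 0.00465), -0.43 (0.0260), -0.04 (0.869) and, on a dim one, 0.08 (0.885). Over both knockdowns the difference was -0.32 (adjusted p = 0.0771). It was -0.46 (adjusted p = 0.012) without control replicate 2 and -0.29 (adjusted p = 0.0133) on the values as deposited, and a second bright probe set gave -0.35 (adjusted p = 0.0355). SLC30A9, a zinc carrier of mitochondria, gave 435, 324 and 562.5 in control, 367, 327 and 401 in knockdown1 and 535, 497 and 473 in knockdown2. The control range covered both knockdown groups, and the gene was not called against control (-0.24 and 0.22). It was called lower in knockdown1 without control replicate 2 (-0.44, adjusted p = 0.0223) and higher in knockdown2 without control replicate 3 (0.42, adjusted p = 0.0292).

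SLC30A1 (ZnT1), which exports zinc across the cell surface and is induced by it, gave 782, 686 and 974 in control, 611, 623 and 693 in knockdown1 and 682, 709 and 741 in knockdown2. Control replicate 2 lay among the knockdown arrays and the other two lay above them. The gene was not called over both knockdowns (-0.26, adjusted p = 0.122), although it was called lower on the values as deposited (-0.23, adjusted p = 0.00873) and without control replicate 2 (-0.37, adjusted p = 0.0213). Its second bright probe set differed by 0.18 in the opposite direction (adjusted p = 0.312), and the average of both gave -0.04. SLC30A8, the transporter of insulin granules, was dim and not called (0.32). SLC30A2, SLC30A3 and SLC30A4, which serve secretory and synaptic vesicles, were below the filter, with signals of 2.10 to 20.2, 1.98 to 5.96 and 1.60 to 10.01.

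**Figure D1:**
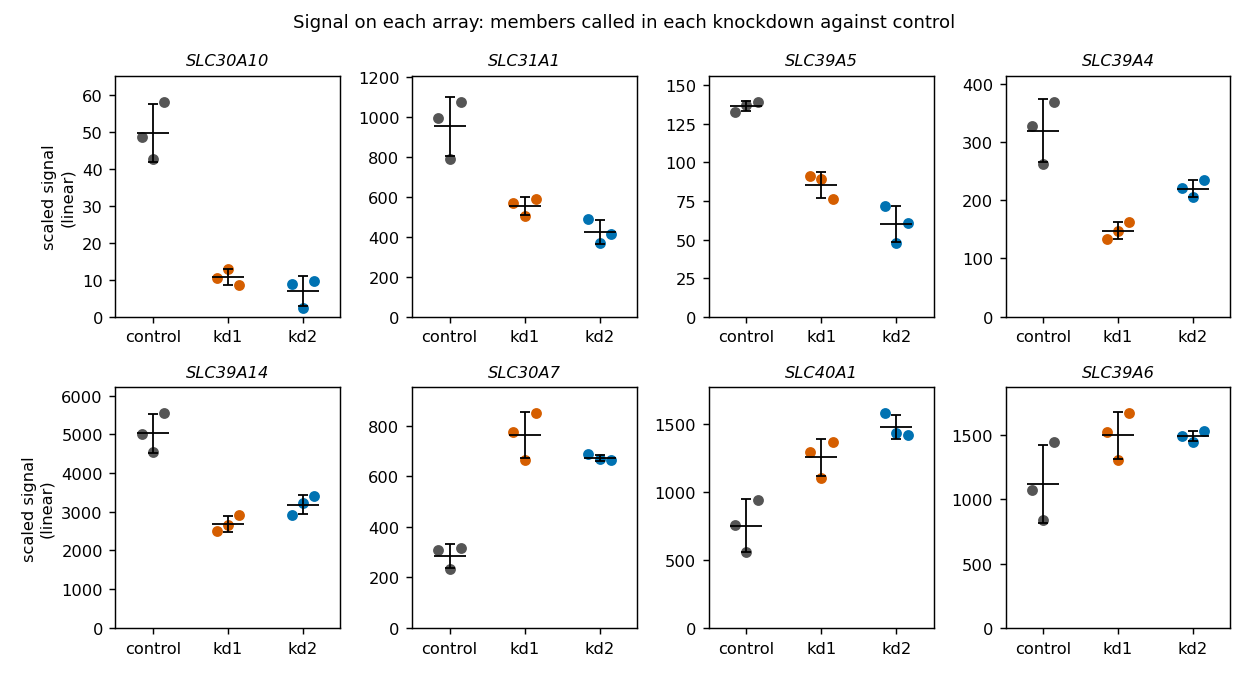
Scaled signal (linear scale from 0) on each of the 9 arrays for the 8 members called against control in both knockdown1 (kd1) and knockdown2 (kd2); points are arrays, long bars group means and whiskers 1 SD (n = 3). In the panels of SLC30A10, SLC31A1, SLC39A5, SLC39A4 and SLC39A14 all knockdown arrays are below control, in those of SLC30A7 and SLC40A1 all are above it, and for SLC39A6 control replicate 3 (1446) reaches into the knockdown range.

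The zinc importers of the cell surface were the largest group. SLC39A5 (ZIP5) sits on the basolateral face of polarised cells and was the member of this group with the largest fall over both knockdowns. It gave 133, 138 and 139 in control, 90.9, 89.3 and 76.0 in knockdown1 and 71.5, 47.8 and 60.6 in knockdown2. The control arrays lay close together and above every knockdown array. The signal fell to 0.525 of control (log2 -0.93, SE 0.15, adjusted p = 1.70e-05), by 0.67 in knockdown1 (adjusted p = 0.00318) and by 1.19 in knockdown2 (adjusted p = 5.44e-06).

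SLC39A4 (ZIP4), the importer that takes up dietary zinc in the intestine, gave 327, 262 and 369 in control, 133.5, 147 and 163 in knockdown1 and 221, 205 and 235 in knockdown2. The groups did not overlap, with knockdown1 lowest. It fell to 0.571 of control (log2 -0.81, SE 0.14, adjusted p = 2.81e-05), with -1.10 in knockdown1 (adjusted p = 2.56e-06) and -0.52 in knockdown2 (adjusted p = 0.0126). The knockdown2 call did not hold without knockdown2 replicate 2 (-0.47, adjusted p = 0.071), nor without replicate 1 of control (-0.50, adjusted p = 0.0539).

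SLC39A6 and SLC39A10 (ZIP6 and ZIP10) are close relatives that can form a joint zinc importer. SLC39A6 gave 1073, 841 and 1446 in control, 1522, 1304 and 1669 in knockdown1 and 1495.5, 1448 and 1528.5 in knockdown2. Control replicates 1 and 2 lay below all knockdown arrays, and control replicate 3 lay above the lowest of knockdown1. The rise was 0.45 over both knockdowns (SE 0.14, adjusted p = 0.0114) and 0.45 in each. Without control replicate 2 it was 0.26 in all 3 comparisons (adjusted p = 0.129, 0.172 and 0.193) and without control replicate 1 it was 0.43 (0.0521, 0.0808 and 0.0958). Leaving out knockdown1 replicate 1 (0.0792) or 3 (0.112) also ended the knockdown1 call, and leaving out knockdown2 replicate 1 (0.0815), 2 (0.0675) or 3 (0.0935) the knockdown2 call. Its 3 further probe sets differed by 0.57 to 0.65 over both knockdowns and each was called.

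SLC39A10 gave 209, 201 and 236 in control, 206, 202 and 242 in knockdown1 and 342, 312 and 281 in knockdown2. Knockdown1 lay within the control range, or just past it on 1 array, and knockdown2 above both. It rose in knockdown2 (log2 0.53, SE 0.15, adjusted p = 0.00791), with 0.01 in knockdown1, and the call was lost without knockdown2 replicate 1 (0.46, adjusted p = 0.0648). Over both knockdowns the difference was 0.27 (adjusted p = 0.115), and 0.34 (adjusted p = 0.0406) without control replicate 3.

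SLC39A1, SLC39A3 and SLC39A11 were lower in knockdown2 and not called in knockdown1. SLC39A1 (ZIP1), a widely expressed surface importer, gave 90.8, 82.2 and 101.5 in control, 104, 127 and 127 in knockdown1 and 59.6, 45.8 and 64.2 in knockdown2. Knockdown2 lay below control and knockdown1 above it on every array. The fall in knockdown2 was called (log2 -0.69, SE 0.18, adjusted p = 0.00364) and the difference of 0.38 in knockdown1 was not (adjusted p = 0.102), although it was on the values as deposited (0.47, adjusted p = 0.0183).

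SLC39A11 (ZIP11) gave 115, 104 and 154 in control, 121, 105 and 119 in knockdown1 and 77.3, 48.4 and 50.3 in knockdown2. The knockdown2 arrays were below all others and the other groups overlapped. It fell in knockdown2 (log2 -1.08, SE 0.19, adjusted p = 6.95e-05), while knockdown1 gave -0.10. The call over both knockdowns (-0.59, adjusted p = 0.00625) was lost without control replicate 3 (-0.43, adjusted p = 0.0566).

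SLC39A3 (ZIP3), another surface importer, gave 267, 198 and 352 in control, 238, 176 and 324 in knockdown1 and 171, 129 and 147 in knockdown2. Spread was wide in control and knockdown1, and all knockdown2 arrays were below both. It fell in knockdown2 (log2 -0.83, SE 0.20, adjusted p = 0.00217), and gave -0.15 in knockdown1, or -0.90 (adjusted p = 0.0186) with its probe sets averaged. Its further probe sets were dim and gave -1.18 (adjusted p = 0.174) and -1.38 (adjusted p = 0.0396) in knockdown1. The call over both knockdowns (-0.49, adjusted p = 0.0299) was lost without knockdown1 replicate 2 (adjusted p = 0.0774), knockdown2 replicate 2 (0.0598), control replicate 1 (0.0795) or control replicate 3 (-0.29, adjusted p = 0.226).

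SLC39A13, SLC39A7 and SLC39A9 work in organelles. SLC39A13 (ZIP13), which is needed for connective tissue and sits in the early secretory pathway, gave 62.9, 46.4 and 54.6 in control, 113, 104 and 129 in knockdown1 and 90.4, 54.9 and 77.9 in knockdown2. Knockdown1 lay above control, and knockdown2 overlapped it with 1 array. It rose over both knockdowns (log2 0.74, SE 0.17, adjusted p = 8.34e-04) and in knockdown1 (log2 1.07, SE 0.19, adjusted p = 6.51e-05), with 0.42 in knockdown2 (adjusted p = 0.110). Without knockdown1 replicate 3 the value over both knockdowns was 0.70 (adjusted p = 0.00373) on the same probe set. The other probe set then became the brightest, and on it the value was 0.37 (adjusted p = 0.086). Without knockdown2 replicate 2 the value in knockdown2 was 0.62 (adjusted p = 0.0277). A further probe set differed by 0.32 and was not called.

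SLC39A7 (ZIP7) releases zinc from the endoplasmic reticulum. It gave 429.5, 299 and 350.3 in control, 586, 584 and 399 in knockdown1 and 386, 340.2 and 325 in knockdown2. Knockdown1 replicates 1 and 2 lay above all other arrays, and replicate 3 lay inside the control range. The rise in knockdown1 (log2 0.53, SE 0.17, adjusted p = 0.0136) was lost without knockdown1 replicate 1 (0.44, adjusted p = 0.0872) or 2 (0.44, adjusted p = 0.0734) or control replicate 2 (0.41, adjusted p = 0.0634). SLC39A9, a ZIP protein of the Golgi, was not called (0.01 over both knockdowns), nor was the dim SLC39A2 (-0.37). SLC39A12, a brain transporter, was below the filter at 0.204 to 6.95.

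Of the magnesium carriers, SLC41A3, a mitochondrial member, gave 157, 118 and 151 in control, 276.5, 253 and 314 in knockdown1 and 184, 155.5 and 172 in knockdown2. Knockdown1 was well above the other groups, and the lowest knockdown2 array lay just under the highest of control. SLC41A3 rose 1.98-fold in knockdown1 (log2 0.98, SE 0.16, adjusted p = 1.35e-05) and by 0.62 over both knockdowns (adjusted p = 6.32e-04), with 0.27 in knockdown2 (adjusted p = 0.228). Its second probe set differed by 0.55 over both knockdowns and was called. SLC41A1 (0.17) and SLC41A2 (0.04) were not called.

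**Figure D2:**
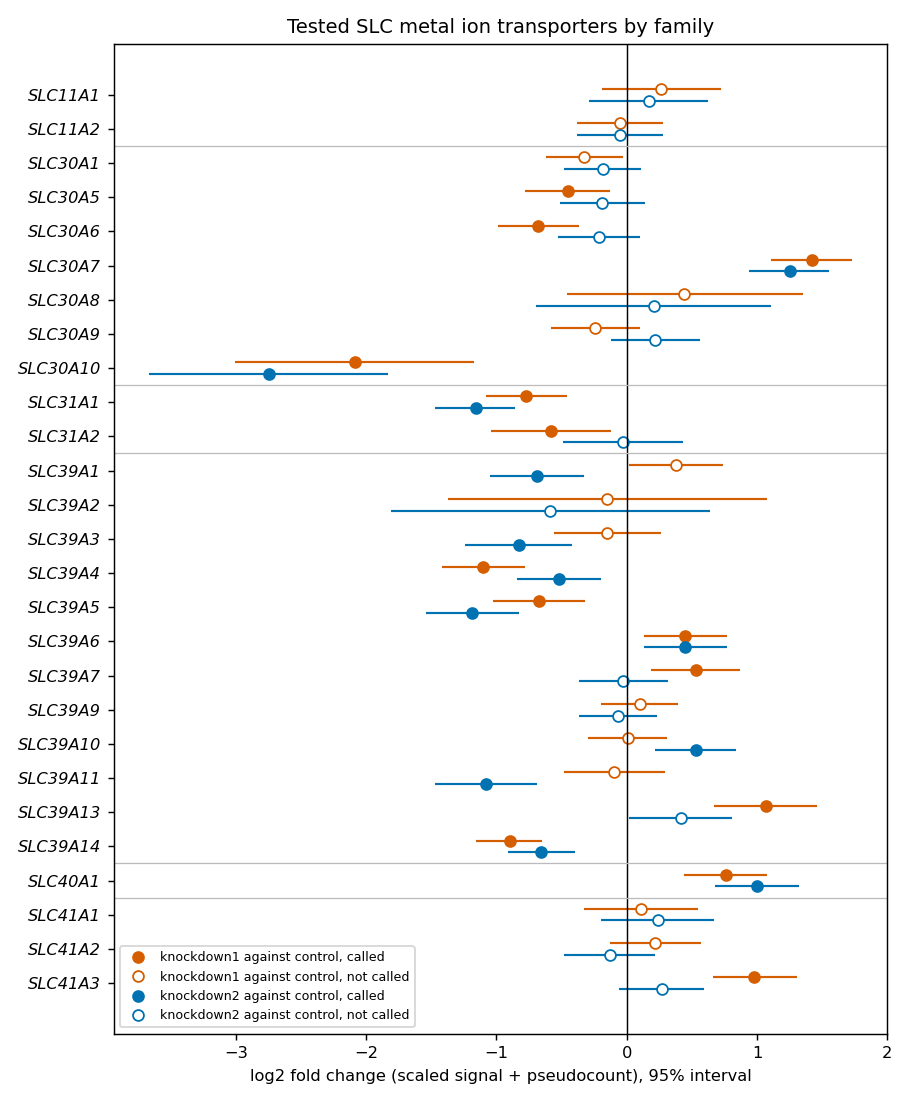
Log2 fold change of each of the 27 tested members in knockdown1 and in knockdown2 against the same 3 control arrays, with bars of the 95% interval; filled points were called at an adjusted p under 0.05. The points run from -2.75 for SLC30A10 in knockdown2 to 1.42 for SLC30A7 in knockdown1, and the members not called lie between -0.59 and 0.44.

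By family over both knockdowns, SLC30 had 1 member higher and 2 lower of 7 tested, SLC39 had 2 higher and 5 lower of 12, and SLC31 had 1 lower of 2. SLC40A1 was higher, SLC41 had 1 higher of 3 and SLC11 had none called of 2. In knockdown1 SLC39 had 3 higher and 3 lower, and in knockdown2 it had 2 higher and 6 lower. The signals of all knockdown arrays were outside the control range for 2 members above and 5 below over both knockdowns, beside 20.9% of all genes. In knockdown1 it was 5 above and 8 below, beside 39.8%, and in knockdown2 5 above and 8 below, beside 39.7%. Of 30 further member probe sets above the filter, 25 had the sign of the brightest one over both knockdowns, and 0 of the opposite ones were called.

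The knockdowns were then set against each other. They differed in 11 of the 27 members, 7 higher and 4 lower in knockdown1, beside 26.6% of all genes (10.5% higher and 16.1% lower). For all genes the split was 1368 higher to 2105 lower, and 2803 to 2104 on the values as deposited. The members' median was 0.17 and that of all genes -0.03. On the deposited values 15 members differed, 11 higher and 4 lower. The arrays of the knockdowns did not overlap for 18 members, 10 higher and 8 lower in knockdown1, beside 43.7% of all genes. The count of members called was 7 without knockdown1 replicate 1 or 2 or knockdown2 replicate 3, 6 without knockdown2 replicate 2, and 6 (3 in each direction) without a variance trend. The count of all genes called went from 3473 to 2692 without a variance trend. It was 2713 to 4174 on leaving out 1 array at a time.

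SLC39A1 and SLC39A11 had the largest gaps of the 11, followed by SLC41A3. SLC39A1 was 2.10-fold higher in knockdown1 (log2 1.07, SE 0.18, adjusted p = 2.92e-05), and its knockdown1 arrays (104, 127 and 127) were all above those of knockdown2 (59.6, 45.8 and 64.2). SLC39A11 was 1.98-fold higher (log2 0.98, SE 0.19, adjusted p = 2.16e-04). SLC39A3 was higher by 0.68 (adjusted p = 0.0112). That call was lost without knockdown1 replicate 3 (0.46, adjusted p = 0.123) or knockdown2 replicate 2 (0.58, adjusted p = 0.0573). The SLC39A3 probe sets averaged to 0.10 (adjusted p = 0.839), and the dim ones gave -0.77 and 0.38, neither called. SLC39A5 was higher by 0.51 (adjusted p = 0.0276), which was lost without knockdown1 replicate 1 (adjusted p = 0.095) or 2 (0.0838) or knockdown2 replicate 2 (0.202) or 3 (0.0593). In the opposite direction, SLC39A4 was lower in knockdown1 (log2 -0.57, SE 0.16, adjusted p = 0.00647), and so was SLC39A10 (log2 -0.52, SE 0.15, adjusted p = 0.00934), the latter not without knockdown2 replicate 1 (-0.45, adjusted p = 0.0728).

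Carriers of organelles also differed. SLC41A3 was higher in knockdown1 by 0.72 (SE 0.16, adjusted p = 9.28e-04), with no overlap between the arrays. SLC39A13 was higher by 0.65 (adjusted p = 0.0117), which was lost without knockdown1 replicate 3 (0.57, adjusted p = 0.0619, on the same probe set, and 0.37, adjusted p = 0.201, on the other, then the brightest) or knockdown2 replicate 2 (0.45, adjusted p = 0.127). SLC39A7 was higher by 0.56 (adjusted p = 0.0125), lost without knockdown1 replicate 1 (adjusted p = 0.0847) or 2 (0.0694) or knockdown2 replicate 3 (0.0598). The secretory pathway exporter SLC30A6 was lower in knockdown1 (-0.47, adjusted p = 0.0236) on its brightest probe set, and its probe sets averaged to 0.08 (adjusted p = 0.845). Its further probe sets gave -0.31 and, on a dim one, 1.00, and neither was called. The SLC30A6 call was also lost without knockdown1 replicate 1 (0.0861) or 2 (0.133) or knockdown2 replicate 2 (0.0914) or 3 (0.0807). Mitochondrial SLC30A9 was lower too (-0.46, adjusted p = 0.0392). Its call was lost without knockdown1 replicate 1 (0.0876) or 2 (0.147), any 1 knockdown2 replicate (0.137, 0.0914 and 0.0617) or control replicate 1 (0.0507).

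Several members called in both knockdowns were not called between them. SLC30A7 differed by 0.17 (95% interval -0.13 to 0.48), SLC39A14 by -0.24 (-0.50 to 0.01), SLC31A1 by 0.39 (0.08 to 0.70) and SLC30A10 by 0.66 (-0.26 to 1.59). None of these 4 passed after adjustment on its brightest probe set. A second bright probe set of SLC31A1 did (0.39, SE 0.12, adjusted p = 0.0239), as did a dim one of SLC30A7 (0.83, adjusted p = 0.0497). Other probe sets gave 0.16 for SLC31A1, 0.23 for SLC30A7 and -0.27 for SLC39A14, and these were not called. The intervals are not adjusted for the number of genes, and that of SLC31A1 lay above 0. A difference between the knockdowns is thus not excluded for any of the 4 members. On the values as deposited SLC31A1 (0.51, adjusted p = 6.93e-04) and SLC30A7 (0.29, adjusted p = 0.011) were called higher in knockdown1. SLC31A1 was also called without knockdown2 replicate 1 (0.50, adjusted p = 0.0416), and without control replicate 2 (0.0221) or 3 (0.0201).

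**Figure D3:**
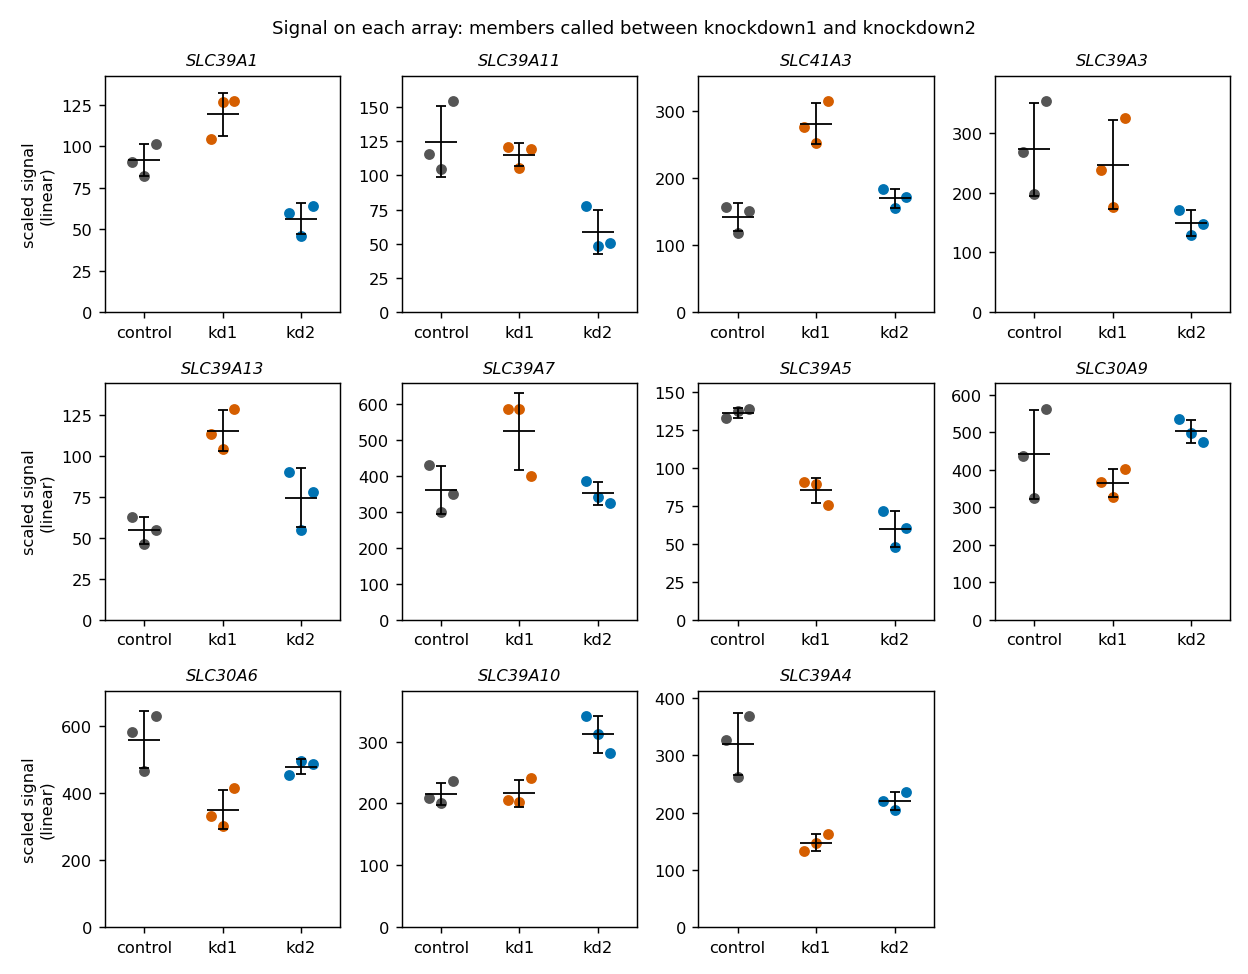
Scaled signal (linear scale from 0) on each of the 9 arrays for the members called between knockdown1 (kd1) and knockdown2 (kd2), with control shown beside them; points are arrays, long bars group means and whiskers 1 SD (n = 3). SLC39A1, SLC39A11, SLC41A3, SLC39A3, SLC39A13, SLC39A7 and SLC39A5 have all knockdown1 arrays above all knockdown2 arrays, and SLC39A4, SLC39A10, SLC30A6 and SLC30A9 have them below.

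The other genes of metal handling were read from lists by metal. In the iron list 29 of 39 genes were tested; 3 rose and 10 fell over both knockdowns, with a median of -0.13. In knockdown1 3 rose and 9 fell, in knockdown2 4 and 8, and between the knockdowns 2 were higher and 6 lower in knockdown1. Of all tested genes 32.6% were called over both knockdowns (14.7% higher and 17.9% lower), 33.3% in knockdown1, 27.6% in knockdown2 and 26.6% between them. HAMP, which encodes hepcidin, gave 770.2, 353 and 385 in control, 51.9, 32.9 and 45.5 in knockdown1 and 99.1, 79.9 and 89.2 in knockdown2. Every knockdown array was below every control array and knockdown1 was the lower of the knockdowns. HAMP fell over both (log2 -2.90, SE 0.19, adjusted p = 2.84e-12). The SLC40A1 transcript was higher on the same arrays. Hepcidin acts on the ferroportin protein, and a link between these transcripts was not tested. HMOX1, the haem-degrading oxygenase, fell over both (log2 -1.03, SE 0.12, adjusted p = 1.04e-07), with -1.73 in knockdown1 and -0.33 in knockdown2 (adjusted p = 0.0784). HMOX1 was not called with all 6 knockdown arrays as 1 group (adjusted p = 0.0776), and was called in knockdown2 on the values as deposited (-0.36, adjusted p = 0.00133) and without control replicate 2 (-0.39, adjusted p = 0.0370). TFR2, an iron sensor of hepatocytes, fell by 0.88 and its partner HFE rose by 0.57. With the probe sets averaged, TFR2 gave -0.24 (adjusted p = 0.347) and HFE 0.11 (adjusted p = 0.745), and neither was called. HPX, which scavenges haem, rose by 0.72 and PCBP2, an iron chaperone, by 0.29 (adjusted p = 0.0321). PCBP2 gave 0.22 in knockdown1 (adjusted p = 0.172) and 0.36 in knockdown2 (adjusted p = 0.0243). The PCBP2 call over both was lost without any 1 of knockdown2 replicate 1 (0.0562), 2 (0.0669) or 3 (0.0898) or control replicate 1 (0.0674) or 2 (0.0728).

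In the zinc list 12 of 20 genes were tested; 4 rose and 1 fell over both knockdowns, with a median of 0.22. In knockdown1 2 rose, in knockdown2 2 rose and 1 fell, and between the knockdowns 2 were higher and 1 lower in knockdown1. The shares of all genes called were 32.6%, 33.3%, 27.6% and 26.6% in the same order. MTF1, the transcription factor that reads cellular zinc, gave 55.9, 39.7 and 32.9 in control, 135, 113 and 123 in knockdown1 and 37.9, 49.1 and 44.7 in knockdown2. Only knockdown1 stood apart, with a difference of 1.53 from control and of 1.47 from knockdown2 (adjusted p = 2.01e-06), while knockdown2 differed from control by 0.06 (adjusted p = 0.865). MTF1 over both knockdowns (0.79) was not called with all 6 knockdown arrays as 1 group (adjusted p = 0.215). KLF4, a transcription factor, rose by 1.46. MT1G, a zinc-storing metallothionein with near-identical relatives that may share its probes, fell by 0.31 (adjusted p = 0.0283). The MT1G difference was -0.14 in knockdown1 (adjusted p = 0.436) and -0.48 in knockdown2 (adjusted p = 0.00430). The call over both was lost without knockdown1 replicate 1 (0.077) or 2 (0.0522), knockdown2 replicate 1 (0.0693) or 3 (0.0815) or control replicate 1 (0.134). MT3 rose by 0.93 on a dim probe set (adjusted p = 0.0303), which was lost without knockdown1 replicate 2 (0.0535), knockdown2 replicate 1 (0.0645) or control replicate 2 (0.66, adjusted p = 0.163) or 3 (0.69, adjusted p = 0.145).

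In the copper list 14 of 15 genes were tested; 1 rose and 4 fell, with a median of -0.11. In knockdown1 3 rose and 5 fell, in knockdown2 1 and 4, and 4 were higher and 3 lower in knockdown1 than in knockdown2. Of all genes 32.6%, 33.3%, 27.6% and 26.6% were called in these comparisons. ATP7B, the copper pump that sends copper to bile, gave 308, 253 and 408 in control, 79.5, 90.7 and 101 in knockdown1 and 111, 114 and 131 in knockdown2. All knockdown arrays were far below control. ATP7B fell over both knockdowns (log2 -1.60, SE 0.15, adjusted p = 1.89e-09), as did the importer SLC31A1. CUTC fell by 0.61. COX19 fell by 0.97 and SCO2, a copper chaperone of mitochondria, rose by 0.46, both called in knockdown1 and not in knockdown2 (-0.58, adjusted p = 0.141, and 0.25, adjusted p = 0.239). With all knockdown arrays as 1 group neither was called (adjusted p = 0.0539 for COX19 and 0.10 for SCO2).

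In the magnesium and manganese list 19 of 23 genes were tested; 1 rose and 6 fell, with a median of -0.07. In knockdown1 1 rose and 5 fell, in knockdown2 1 and 4, and 2 were higher and 1 lower in knockdown1 than in knockdown2. These counts stand beside 32.6%, 33.3%, 27.6% and 26.6% of all genes. CNNM3 fell by 0.84 and MRS2, the magnesium channel of mitochondria, by 0.81. CLDN19, a claudin of tight junctions, fell by 0.97, with -0.51 in knockdown1 (adjusted p = 0.0646) and -1.43 in knockdown2, and was not called with all knockdown arrays as 1 group (adjusted p = 0.0616). FXYD2, a subunit of the sodium pump, rose by 1.35 on a dim probe set whose mean in control (13.8) was below the array median. It gave 11.9, 12.1 and 17.3 in control, so it passed the brightness filter only through its knockdown arrays. Its rise, and its count as the 1 gene of this list that rose, are therefore no support. MRS2 was -0.41 in knockdown1 and -1.21 in knockdown2, and differed between them (log2 0.80, SE 0.14, adjusted p = 9.48e-05).

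**Figure D4:**
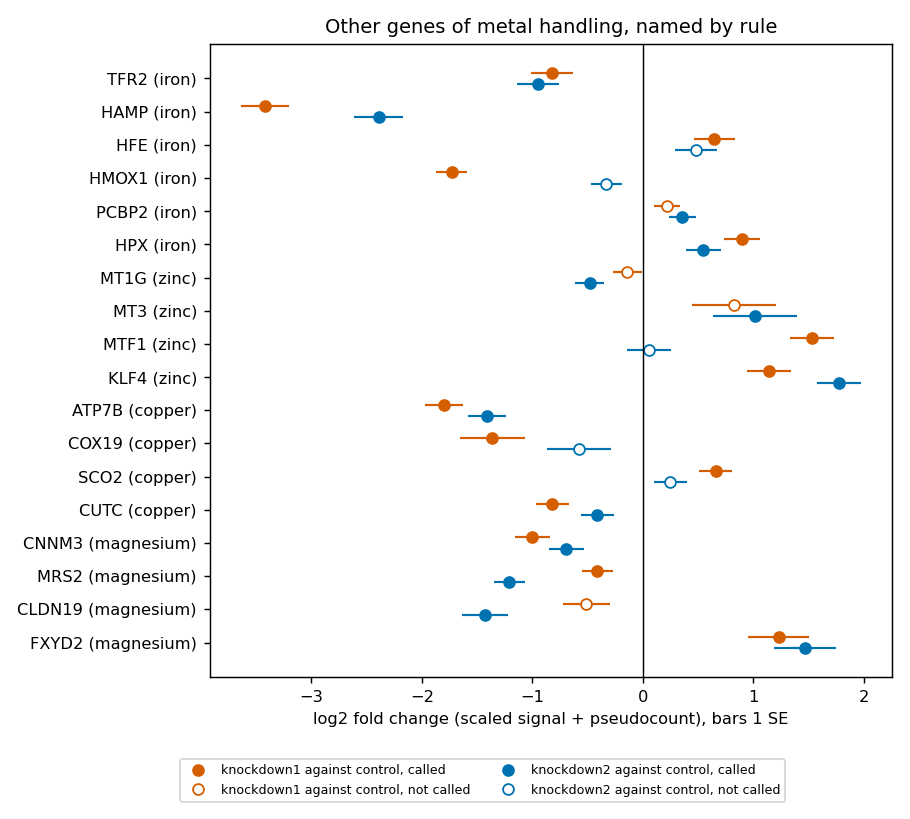
Log2 fold change of the named genes of the iron, zinc, copper and magnesium lists in knockdown1 and in knockdown2 against the same 3 control arrays, with bars of 1 SE; filled points were called at an adjusted p under 0.05. HAMP lies furthest to the left (-3.42 in knockdown1 and -2.39 in knockdown2), and HFE, HMOX1, MTF1, COX19 and SCO2 have a filled point for knockdown1 and an open one for knockdown2.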

How the data were processed

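For each of the 9 arrays the authors deposited linear intensities per probe set from MAS5, the Affymetrix signal method, per the submitters' processing notes, which name no version. The trimmed mean of each array (2% at each end) was 100, so the authors' values are relative brightness with no count behind them, and the number of arrays limits the precision. Array medians ran from 12.3 to 15.7, a ratio of 1.28, and each array was multiplied by 0.898 to 1.15 to reach a median of 14.1. Scaling was set to be done above a ratio of 1.2.

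Values were taken as log2(signal + 1.41). Of 54675 probe sets, 41097 had 1 gene symbol in the platform annotation, 1801 several and 11721 none, and 62 were controls; those with several or none were not used. A probe set had to exceed its array's median on at least 3 arrays, which 29651 did, and the one with the highest mean log2 signal stood for its gene. The 27 members and the other genes were tested with limma 3.58.1 (lmFit, and eBayes with a variance trend) in R 4.3.3 on all 9 arrays, with Benjamini-Hochberg adjustment over 13056 genes. Further probe sets of a gene were read from a like fit over all probe sets above the filter. The effect over both knockdowns was the mean of the knockdown1 and knockdown2 differences, with the spread taken within the 3 groups. The script was tested on simulated data. Correlations were 0.973 to 0.978 within groups and 0.931 to 0.953 between them, and no pair of arrays in a group shared over 1.37% of values, so each array counted as 1 replicate.

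Every member called in any comparison was named with all its arrays, and from each metal list the 3 called genes with the largest change in each direction. The members and lists were chosen with earlier results of these data known, among them the rise of SLC40A1. The alternatives covered scaling, filter, pseudocount, probe set choice, variance model, arrays in the fit, the replicate block and leaving out each array. Centring each array on its tested genes, and leaving out arrays with genes and probe sets kept, were chosen after seeing the data. Protein sequences were not analysed here.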

Additional observations from a re-analysis of the deposited data

Results flagged for a closer look

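These members differed between knockdown1 and knockdown2 in the direct limma test between them (adjusted p under 0.05), so their effects against the shared control differed. All values are log2 differences, knockdown1 minus knockdown2, with 3 arrays each. SLC39A1 (1.07), SLC39A11 (0.98), SLC41A3 (0.72), SLC39A3 (0.68), SLC39A13 (0.65), SLC39A7 (0.56) and SLC39A5 (0.51) were higher in knockdown1. SLC39A4 (-0.57), SLC39A10 (-0.52), SLC30A6 (-0.47) and SLC30A9 (-0.46) were lower in it. HNF4G, a target of both siRNA treatments, had a mean signal of 18.5 in knockdown1 and 31.6 in knockdown2; its part in these differences was not tested. With 3 arrays a group, single arrays were not tested as outliers.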

How the results depend on the processing

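Of the 50 calls of members in the 4 comparisons, 27 kept their direction and their side of the threshold under every alternative run. The other 23 lost the threshold under at least 1. The 27 include SLC30A10 over both knockdowns and in knockdown1, tested under only 25 alternatives where SLC30A7 had 30. SLC30A10 passed the filter through its control arrays alone, so its place among the 27 is no support. One value reversed, that of SLC30A6 between the knockdowns, 0.08 with the probe sets averaged. The average gives each probe set the same weight, and these gave -0.47, -0.31 and, on a dim one, 1.00 (SE 0.62). The count of members called over both knockdowns was 7 with the knockdown arrays pooled as 1 group, where the spread includes the differences between the knockdowns, and all 7 were among the 13. The pooled fit called 16.9% of all genes, beside 32.6% in the main fit. Between the knockdowns the member count was 6 without a variance trend, 5 of them among the 11. That setting called 2692 of all genes, beside 3473 in the main fit. The cause was not tested. Leaving out 1 array at a time gave 9 to 13 called members over both knockdowns, 11 to 13 in knockdown1, 9 to 12 in knockdown2 and 6 to 12 between the knockdowns, with fewer arrays in each fit. Of all genes 3301 to 4424, 3573 to 4604, 2807 to 4032 and 2713 to 4174 were called, in the same order. Those counts chose genes and probe sets anew, which left SLC30A10 untested without any 1 control array and changed the probe set of SLC39A13 without knockdown1 replicate 3. With both kept as for all 9 arrays, an alternative added after seeing the data, the counts were 10 to 14, 11 to 13, 10 to 13 and 6 to 12. The counts of all genes were then 3303 to 4428, 3585 to 4613, 2802 to 4037 and 2706 to 4171. SLC30A10 was also not tested under either stricter filter. With the replicate number as a block, the counts were 14, 15, 12 and 12. Of all genes that fit called 4905, 4996, 4265 and 4147, where the main fit called 4256, 4351, 3608 and 3473. Same-numbered arrays correlated at -0.02 to 0.13 in their deviations and 5 of 9 correlated best with their own number, while 7 of 9 had a higher mean correlation with it than with the other numbers. Not every pair was over 0.1, so the numbers were not shown to pair the arrays. Dim members are the least certain, since MAS5 signals near the array median scatter widely.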
